A study of Mus musculus with 3 samples.

Results

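The 6 actin genes (Actb, Actg1, Acta1, Acta2, Actc1 and Actg2) and the 4 tropomyosin genes (Tpm1, Tpm2, Tpm3 and Tpm4) of the mouse were examined by RNA-seq in melan-a cells. The 10 genes were chosen by symbol, by a rule that uses no measured value, though earlier results of these data were known. All 10 were found among the 22698 genes measured. Melan-a is an immortalized line of mouse melanocytes, the pigment cells of skin and hair. All 3 libraries were of 1 condition, untreated cells of C57BL/6J background labelled as coming from Ink4a-ARF-/- mice. The cells were grown with 10% fetal bovine serum, 200 nM of the phorbol ester 12-O-tetradecanoylphorbol 13-acetate and 200 pM cholera toxin, so serum, phorbol ester and cholera toxin were common to every value below. The libraries carry the replicate numbers 1, 3 and 4, and nothing in the labels says how far apart the cultures were, so an SD here covers only the spread between these 3 libraries, which may be technical. A single cultured line also limits what the values can stand for, since melanocytes in skin were not measured.

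Actin polymerizes into the filaments that shape a cell, carry its cargo over short distances and pull on its attachments. Mammals have a pair of cytoplasmic actins, beta (Actb) and gamma (Actg1), which are made in nearly every cell, and muscle actins that belong to skeletal muscle (Acta1), heart (Actc1), vascular smooth muscle (Acta2) and enteric smooth muscle (Actg2). Tropomyosins are coiled-coil proteins that lie along the filament and set which myosins and other proteins may bind it. Their genes make splice forms from alternative promoters and exons, from 2 annotated transcripts for Tpm4 to 21 for Tpm1. In melanocytes, actin filaments under the cell surface are the track on which myosin Va holds melanosomes in the dendrites.

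The values are FPKM, in which the reads of a gene are divided by its length and by the depth of the library, so genes may be set side by side per length. They are given per gene, and splice forms of a gene are not resolved. The values of a library summed to between 358891 and 394507 FPKM. The steps between low values of short genes gave scaled depths of 53800000, 47200000 and 66000000 reads for replicates 1, 3 and 4 in turn. For a gene of 1 kb, 3 reads then came to 0.0558, 0.0636 and 0.0455 FPKM, and a level at or under 3 reads was treated as not measurable. Across genes, Spearman's rho between libraries was 0.979 to 0.982, a description without a test since genes are not replicates. The libraries differed by base composition, with a rho of 0.779 between a gene's GC content and its ratio of replicate 3 to replicate 4 over 10007 genes at 1 FPKM or more in every library.

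Of the 10 melanocyte markers examined, 9 reached 1 FPKM in every library, among them Tyrp1 at 3144 ± 434 FPKM (SD, n = 3), Dct at 1412 ± 96.3, Sox10 at 468 ± 85.7 and Mitf at 22.1 ± 4.69. Kit, the receptor for stem cell factor, lay at 0.680 ± 0.0954 FPKM. The label names the Ink4a and ARF products of 1 gene, Cdkn2a, and Cdkn2a was measured at 19.2, 16.5 and 24.3 FPKM, so the loss that the label names was not visible as loss of RNA. A value per gene does not show which exons the reads came from.

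The actins are so alike that reads of one may match others. Aligned from end to end, the coding sequences of Actb and Actg1 were identical at 88.7% of positions, and any other pair of actins at 81.9% to 86.2%. The first 30 coding bases, which encode the amino terminus where the actins differ most, are printed below for the 6 genes from the mm9 genome. Capitals mark bases that differ from Actb, position by position from the start codon with no gaps allowed.
Actb, chr5:143667336-143667365, minus strand: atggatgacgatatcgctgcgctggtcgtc
Actg1, chr11:120209376-120209405, minus strand: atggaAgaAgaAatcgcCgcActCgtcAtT
Acta1, chr8:126417568-126417597, minus strand: atgTGCgacgaAGAcgAGAcCACCgCTCtT
Acta2, chr19:34327014-34327043, minus strand: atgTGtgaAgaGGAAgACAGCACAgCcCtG
Actc1, chr2:113877738-113877767, minus strand: atgTGtgacgaCGAGgAGAcCACCgCTTtG
Actg2, chr6:83477406-83477435, minus strand: atgTGtgaAgaAGAGAcCAcCGCCCtTgtG
Actg1 differed from Actb at 8 of the 30 positions, and the 4 muscle actins at 17 or 18.

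Tropomyosin coding sequences were less alike, identical at 73.2% to 76.9% of aligned positions. Even so, the annotated first coding exons of Tpm1 and Tpm2 begin with the same 30 bases, shown here because their levels lay at opposite ends of the family.
Tpm1, chr9:66896910-66896939, minus strand: atggacgccatcaagaagaagatgcagatg
Tpm2, chr4:43536197-43536226, minus strand: atggacgccatcaagaagaagatgcagatg
Beyond this stretch, no 50-base window of Tpm1 or Tpm2 transcripts was found at any other place in mm9, so their reads can be told apart at that length.

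Copies elsewhere in the genome are a larger matter for 3 of the 10 genes. For 1 annotated transcript of each gene, every window of 50 bases was looked up in mm9 on both strands, outside the gene itself, and in the coding transcripts of other genes. For Actg1, 96.7% of windows had an exact copy elsewhere, and 94.5% of windows of 90 bases had one. The nearest copy, the annotated pseudogene Gm12715, alone held 89.3% of its 50-base windows, and Gm8399 held 66.3%. Neither pseudogene is among the genes with values here. For Tpm3 the share was 62.4% of 50-base windows, all of which were found in 1 gene, Tpm3-rs7. For Tpm4 it was 19.8%, for Actb 15.4%, for Acta1 2.22% and for Acta2 0.404%, and for Actc1, Actg2, Tpm1 and Tpm2 it was 0. Annotated genes also overlap exons of Actg1 on the same strand (AL669855.1, over 3.12% of their length) and of Tpm4 on the opposite strand (Gm17371, 6.08%), and whether strand was used in counting is not given in the sources used here. Over the windows of all annotated coding transcripts together, the share with a copy was 71.9% of 50-base and 64.8% of 90-base windows for Actg1, and 40.03% and 29.9% for Tpm3. How reads that fit several places were treated is not given in the sources used here. The levels of Actg1, Tpm3 and Tpm4 are therefore uncertain, by an amount that these percents do not give. The part of these copies in the levels was not tested.

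**Figure D1:**
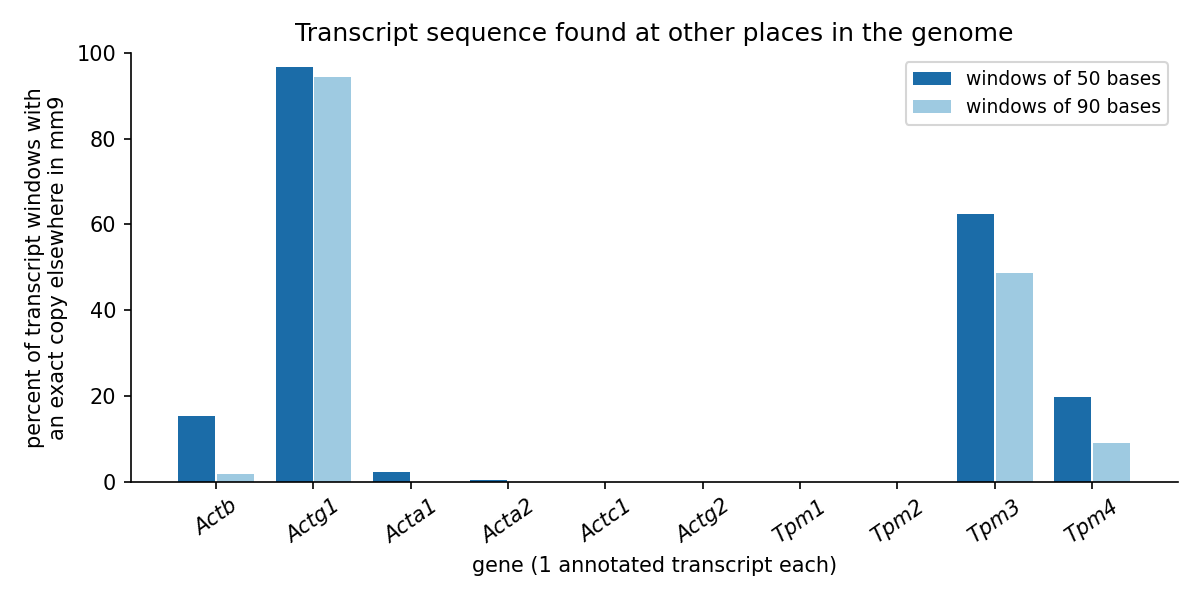
Bars give, for 1 annotated transcript of each gene on the x axis, the percent of windows of 50 (dark) and 90 bases (light) with an exact copy elsewhere in mm9. Actg1 stands at 96.7% and 94.5%, Tpm3 at 62.4% and 48.8%, and 4 of the 10 genes at 0.

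Expression of the family fell into an abundant and a low set. Actb, Actg1, Tpm1, Tpm3 and Tpm4, which is 5 of the 10 genes, reached 1 FPKM in every library, and 44.1% of all 22698 genes did so. Among genes above 0 in every library, which include all 10, that share was 73.4%. The same 5 reached 100 FPKM in every library, a level reached by 2.17% of all genes. The other 5, namely Acta1, Acta2, Actc1, Actg2 and Tpm2, stayed under 1.2 FPKM in every library. At a threshold of 0.1 FPKM, Acta2 and Actg2 were counted as well, which made 7 of the 10. The share of all genes at that threshold was not computed, so this count shows nothing particular to the members. By mean level, 54.7% of all genes lay at or below Acta2 and 54.0% at or below Actg2. No gene of the 10 lay between 1.15 and 119.6 FPKM.

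**Figure D2:**
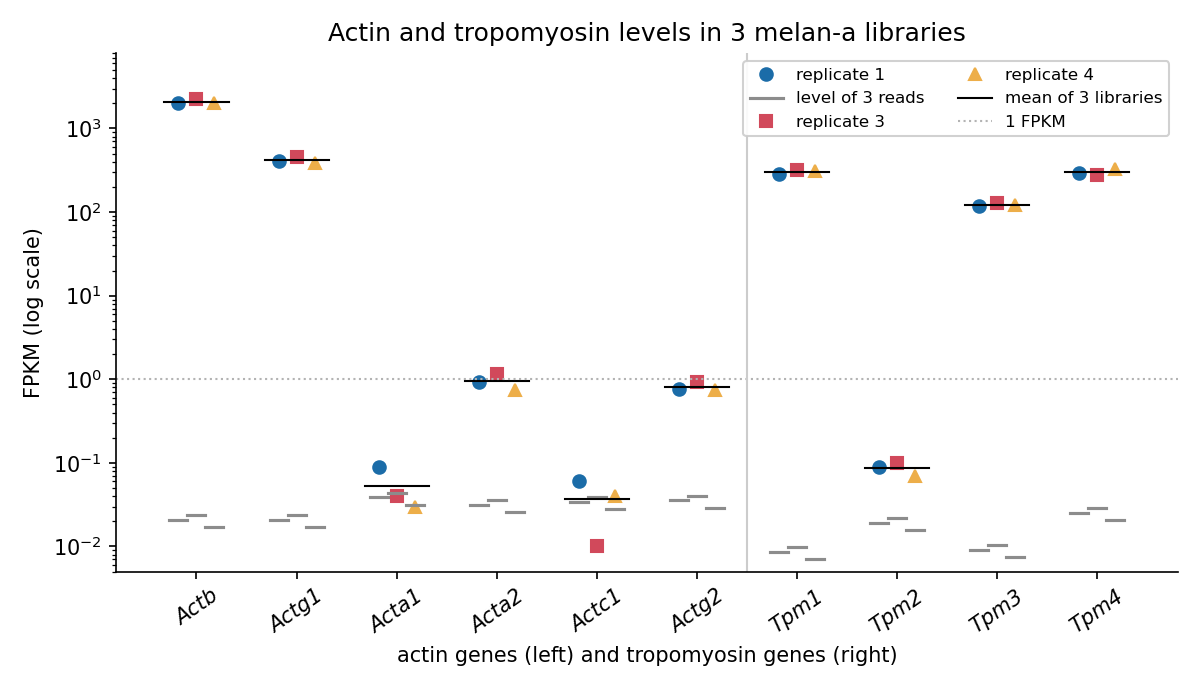
Points give FPKM on a log scale in replicates 1, 3 and 4 for the 6 actins and 4 tropomyosins, black bars the mean of the 3 libraries and grey bars the level of 3 reads. Actb, Actg1, Tpm1, Tpm3 and Tpm4 sit between 119.6 and 2265 FPKM, and the other genes at 1.15 FPKM or less.

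Actb encodes cytoplasmic beta-actin, which the study used as the reference gene for quantitative PCR in melan-a cells. It lies at chr5:143664794-143668433 on the minus strand of mm9 (ENSMUSG00000029580). In replicates 1, 3 and 4, the order kept below, its levels were 2028, 2265 and 2016 FPKM, a mean of 2103 ± 140.1 (SD, n = 3). Replicate 3 was highest and the other libraries were close together, and Actb ranked 13 among all genes.

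Actg1 encodes cytoplasmic gamma-actin and lies at chr11:120207004-120209856 on the minus strand (ENSMUSG00000062825). It was measured at 411, 457 and 391 FPKM, a mean of 419.7 ± 33.96, and ranked 99. The libraries ran in the same order as for Actb, with replicate 3 highest and replicate 4 lowest. The ratio of Actb to Actg1 within a library was 4.93, 4.95 and 5.16, a mean of 5.02 ± 0.13, and the ranges of the genes did not overlap. This ratio rests on an Actg1 value for which 96.7% of 50-base windows of 1 transcript, and 71.9% over all transcripts, have copies elsewhere.

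The muscle actins together came to 1.85 ± 0.285 FPKM, against 2523 ± 173 FPKM for Actb and Actg1 together. They made up 0.0730% ± 0.00699 of the summed actin level, and within a library the cytoplasmic actins stood 1272 to 1533 times higher. Bulk RNA averages over cells, so fewer cells with a transcript and less of it per cell cannot be told apart.

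Acta2, the smooth muscle alpha-actin known also from myofibroblasts, lies at chr19:34315580-34329826 on the minus strand (ENSMUSG00000035783). It was measured at 0.93, 1.15 and 0.75 FPKM, a mean of 0.943 ± 0.200, which came to about 88.2 to 96.7 reads. Actg2, the enteric smooth muscle actin at chr6:83462899-83486259 on the minus strand (ENSMUSG00000059430), was measured at 0.76, 0.94 and 0.75 FPKM, a mean of 0.817 ± 0.107. Both were well above the level of 3 reads in every library, so reads were counted on both genes at a low level. Whether some of these reads came from the far more abundant Actb and Actg1 was not tested. Their ranges overlapped, and Acta2 exceeded Actg2 in 2 of 3 libraries and equalled it in replicate 4.

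Acta1, skeletal muscle actin at chr8:126415669-126418651 on the minus strand (ENSMUSG00000031972), was listed at 0.09, 0.04 and 0.03 FPKM. Only replicate 1 was above the 3-read levels of 0.0386, 0.0440 and 0.0314 FPKM. Actc1, cardiac actin at chr2:113873018-113879284 on the minus strand (ENSMUSG00000068614), was listed at 0.06, 0.01 and 0.04 FPKM, against 3-read levels of 0.0345, 0.0393 and 0.0281. Replicates 1 and 4 were above and replicate 3 below, so neither striated muscle actin could be measured reliably at this depth, and no fold change is given for them.

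Tpm1 makes long and short tropomyosins in muscle and non-muscle cells and lies at chr9:66870397-66897213 on the minus strand (ENSMUSG00000032366), with 21 annotated transcripts. It was measured at 288, 315 and 309.5 FPKM, a mean of 304 ± 14.5. Tpm4, which makes a short form found on stress fibres and at the cell surface, lies at chr8:74658874-74677041 on the plus strand (ENSMUSG00000031799). It was measured at 297, 279 and 324 FPKM, a mean of 299.8 ± 22.4.

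Tpm1 and Tpm4 ranked 152 and 154, and their order turned between libraries. The ratio of Tpm4 to Tpm1 was 1.03, 0.887 and 1.05, below 1 in replicate 3 alone, so the levels did not differ beyond their spread. With 3 libraries, an exact test of signs within libraries cannot go below p = 0.25 (two-sided), so no test was made of any such ratio.

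Tpm3, a source of short tropomyosins in most non-muscle cells and of a slow-muscle form, lies at chr3:89876571-89904824 on the plus strand (ENSMUSG00000027940) with 18 annotated transcripts. It was measured at 119.6, 128 and 122 FPKM, a mean of 123 ± 4.14. Tpm4 stood 2.48, 2.19 and 2.65 times higher than Tpm3 in the 3 libraries, a mean of 2.44 ± 0.23, and the ranges did not overlap. This order holds on the deposited scale and turned with other gene lengths, as the shares of the tropomyosin total show. Tpm1 stood 2.40 to 2.53 times higher than Tpm3.

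The near copy Tpm3-rs7 (ENSMUSG00000058126), named here after its values were seen, was itself listed at 59.7, 61.4 and 59.2 FPKM, a mean of 60.1 ± 1.12. Tpm3 stood 2.002, 2.08 and 2.06 times higher than Tpm3-rs7 within a library, a nearly constant ratio. Summed, Tpm3 and Tpm3-rs7 came to 183 ± 5.12 FPKM, which on the deposited scale is below Tpm1 and Tpm4.

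Tpm2, a tropomyosin of skeletal and smooth muscle that fibroblasts also make, lies at chr4:43527583-43536637 on the minus strand (ENSMUSG00000028464). It was measured at 0.09, 0.10 and 0.07 FPKM, a mean of 0.0867 ± 0.0153, or about 13.4 to 14.1 reads per library. All 3 libraries were above the level of 3 reads. Tpm1 stood 3149 to 4422 times higher than Tpm2, and Tpm3 1277 to 1746 times higher. The genes that share their first 30 coding bases thus held the lowest mean level of the family and, level with Tpm4, the highest.

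As shares of the tropomyosin total in FPKM, Tpm1 took 41.8% ± 1.57, Tpm4 41.2% ± 2.23, Tpm3 17.0% ± 0.756 and Tpm2 0.0120% ± 0.00240. These shares depended on the length by which reads were divided, because the joined exons of Tpm1 (6485 bases) and Tpm3 (6085 bases) are far longer than those of Tpm4 (2203 bases). The length used by the authors is not given. In short genes with several transcripts, joined exons gave values nearer to whole reads (mean distance 0.143) than the longest transcript did (0.190, over 61 values). Values were picked by their reads on joined exons, and the smaller values of a shorter length were set against at least a single read. This favours joined exons, so the comparison cannot settle the length used. Read counts were not available, so reads were computed back as FPKM times the joined-exon length, which assumes that the authors divided by that length. With these reads divided by the longest coding transcript, Tpm1 took 51.3%, Tpm3 25.3% and Tpm4 23.4%. As such reads with no division by length, Tpm1 took 58.3%, Tpm3 22.2% and Tpm4 19.5%. Tpm1 was thus level with Tpm4 on the deposited scale and above it on both others, Tpm4 was above Tpm3 on the deposited scale and below it on both others, while Tpm2 stayed under 0.02% on all of them. The FPKM of Tpm3-rs7, which is per its own length, was also added to that of Tpm3, an alternative chosen after seeing the data. The shares were then 38.6% for Tpm1, 38.1% for Tpm4 and 23.3% for Tpm3.

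**Figure D3:**
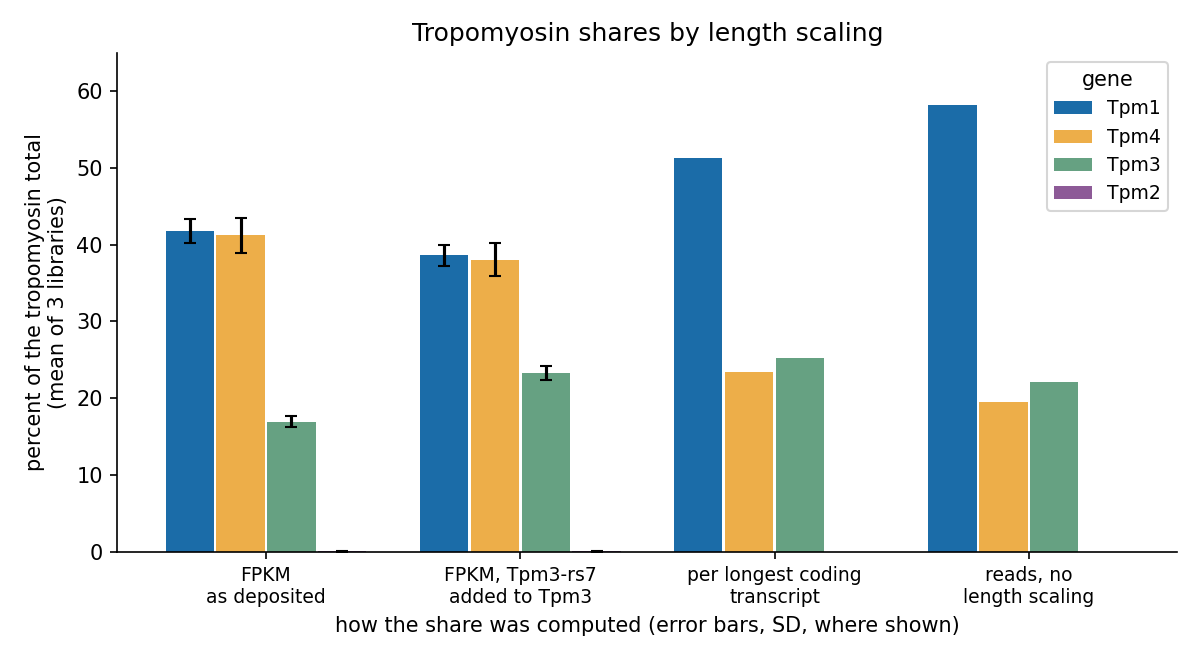
Bars give the mean percent of the tropomyosin total taken by each gene under 4 ways of computing it, with SD over 3 libraries for the first pair of groups. Tpm1 and Tpm4 are level at 41.8% and 41.2% on the deposited scale. Tpm4 falls to 19.5% when reads, computed back from FPKM and joined-exon length, are not divided by length.

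The shares of the cytoplasmic actins moved far less, because the joined exons of Actb (2679 bases) and Actg1 (2658 bases) are nearly equal in length. This stability was fixed by the lengths and does not lessen the limit that copies elsewhere set on Actg1. Actb took 83.3% ± 0.351 of the actin total in FPKM and 83.4% as reads computed back from joined-exon length. Actg1 took 16.6% ± 0.345 and 16.5%. The small shares of Acta2 and Actg2 did move, from 0.0371% to 0.0247% and from 0.0323% to 0.0188%. The summed actins came to 2525 ± 173 FPKM and the summed tropomyosins to 727 ± 26.2 FPKM. Their ratio was 3.47, 3.77 and 3.19 in replicates 1, 3 and 4, a mean of 3.48 ± 0.29.

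In order of mean level, then, the genes ran Actb, Actg1, Tpm1, Tpm4, Tpm3, Acta2, Actg2, Tpm2, Acta1 and Actc1. Neighbours in this order whose ranges overlapped were Tpm1 and Tpm4, Acta2 and Actg2, Tpm2 and Acta1, and Acta1 and Actc1. The ranges of the other neighbours were separate. The step from Tpm3 to Acta2 was the widest among them, with ratios of 129, 111 and 163.

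Between libraries the 5 abundant genes varied little. Their coefficients of variation were 6.66% for Actb, 8.09% for Actg1, 4.77% for Tpm1, 3.36% for Tpm3 and 7.47% for Tpm4. The 200 genes nearest to each of them in mean level had median coefficients of 10.3% to 11.6%, and on the deposited scale each of the 5 was below the middle of its neighbours, at percentiles from 12.5 for Tpm3 to 32 for Actg1. With 2 libraries at a time the coefficients ranged from 0.407% to 8.20% for Actb, 3.64% to 11.1% for Actg1, 1.22% to 6.42% for Tpm1, 1.55% to 4.64% for Tpm3 and 4.31% to 10.4% for Tpm4. These are descriptions, since no condition was varied.

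For Tpm4, Actb and Actg1, the difference between replicates 4 and 3 had the same sign as that of genes of like GC content. Tpm4, with a GC content of 46.1% the lowest of the 10, had a log2 ratio of replicate 4 to replicate 3 of 0.21, and genes of like GC content had a median of 0.23. Actg1, at 55.3%, had a ratio of -0.23 where genes of like GC content had -0.32. For Tpm1 and Tpm3, near 49% GC, it did not, with measured ratios of -0.02 and -0.06 beside medians of 0.04 and 0.02. The part of base composition in these differences was not tested.

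After each library was adjusted for GC content, the coefficient of variation of Tpm4 went from 7.47% to 0.746%, of Actb from 6.66% to 3.77% and of Actg1 from 8.09% to 3.896%. That of Tpm1 went from 4.77% to 5.06% and that of Tpm3 from 3.36% to 3.81%. Rescaling each library to the same sum moved Tpm4 the other way, to 12.3%, or to 13.2% when mitochondrial genes were left out of the sum, while Actb went to 3.55% and 3.24% and Actg1 to 3.71% and 2.82%.

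**Figure D4:**
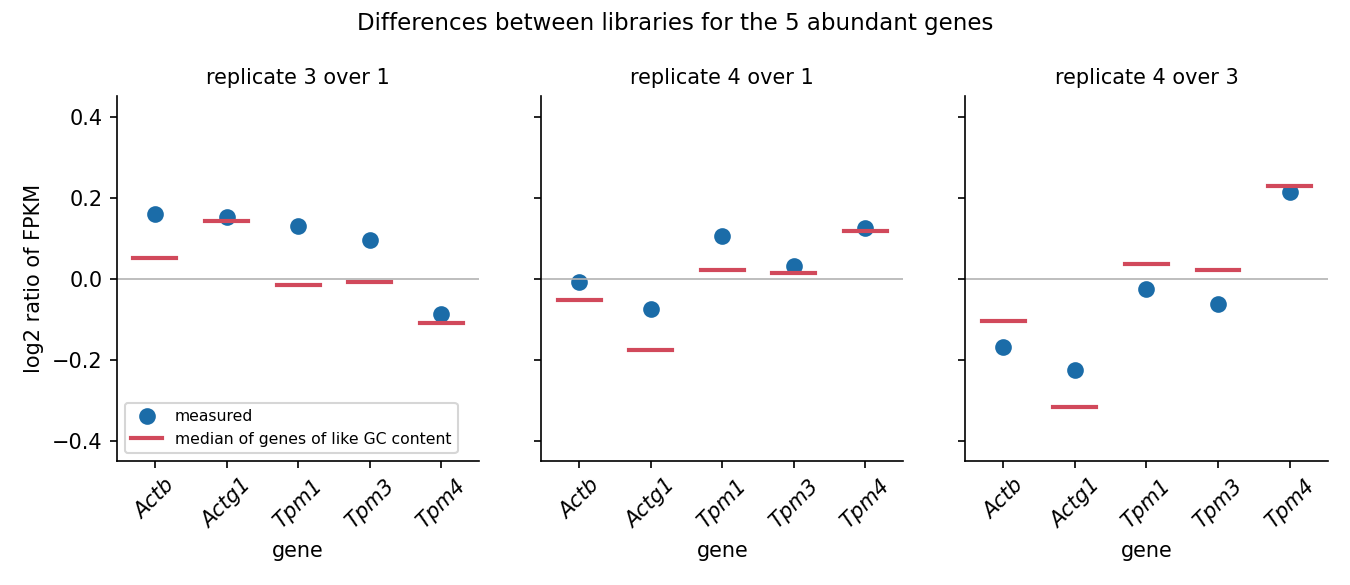
Points give the log2 ratio of FPKM between each pair of libraries for the 5 abundant genes, and red bars the median ratio of genes of like GC content. For replicate 4 over 3 the Tpm4 point at 0.21 lies beside its bar at 0.23, and the Actg1 point at -0.23 above its bar at -0.32.

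Among all other genes, the one whose level was most like that of each abundant gene was found by the root mean square difference of log2(FPKM + 1) over the 3 libraries. For Actb this was Cfl1 (difference 0.08), which encodes the filament-severing protein cofilin, at 1976, 2307 and 1834 FPKM. For Actg1 it was Myl6 (0.03), a light chain of non-muscle and smooth muscle myosin, at 421, 468 and 399.8 FPKM. For Tpm1, Tpm3 and Tpm4 they were Mt1 (0.05), Tmem59 (0.02) and Pmp22 (0.02). With 3 libraries of 1 condition, this measure reflects the level far more than any course over samples.

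The proteins that act on actin were then placed beside it by lists of their genes, some of which stand in more than 1 list. The counts of each list are to be read beside all genes, of which 44.1% reached 1 FPKM in every library and 2.17% reached 100 FPKM. Among genes above 0 in every library, 73.4% reached 1 FPKM. Of 24 genes for monomer binding and filament turnover, 18 reached 1 FPKM in every library and 9 reached 100 FPKM. The median of the list was 27.1 FPKM, against 0.277 over all genes. Its highest members were Cfl1 at 2039 ± 243 FPKM, Pfn1 (profilin, which feeds monomers to growing filaments) at 1103 ± 113 and Tmsb10 (a monomer-sequestering thymosin) at 382 ± 37.1. Cfl1 was thus at the level of Actb, with overlapping ranges.

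Nucleation and elongation genes ran lower, with 23 of 33 found at 1 FPKM or more and a median of 11.7 FPKM. The highest 3 were subunits of the branch-forming Arp2/3 complex, Arpc2 at 342 ± 18.3 FPKM, Arpc1b at 195 ± 9.43 and Arpc3 at 156 ± 2.78. Of 12 filament end capping genes, 8 reached 1 FPKM, led by Capzb (capping protein beta) at 199 ± 13.2, Eps8 at 109 ± 16.0 and Add1 (adducin) at 77.4 ± 7.72. Among the tropomodulins, which cap the slow-growing end together with tropomyosin and are named here after their values were seen, Tmod3 lay at 23.1 ± 3.42 FPKM and Tmod1 at 8.003 ± 0.530, while Tmod2 and Tmod4 stayed at or under 0.10.

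Crosslinking and anchoring genes reached 1 FPKM for 17 of 24 found, with a median of 34.5 FPKM. Actn4, the non-muscle alpha-actinin, lay at 669 ± 118 FPKM, Flna (filamin A) at 358 ± 72.8 and Msn (moesin) at 352 ± 9.57. The median log2 ratio of replicate 4 to replicate 3 over this list was -0.35, against -0.02 over all genes at 1 FPKM or more. It was 0.32 over the end capping genes and 0.20 over the melanocyte markers, and the medians of the other lists of actin filament genes lay between -0.18 and -0.004. The part of GC content in these shifts was not tested.

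Genes that work with tropomyosin on non-muscle and smooth muscle filaments were at 1 FPKM or more for 11 of 14 found. Tagln2 (transgelin 2) lay at 668 ± 123 FPKM, Myl6 at 429.6 ± 34.6 and Cnn2 (calponin 2) at 370.5 ± 72.8. The median of the list was 12.2 FPKM.

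The troponins, which bind tropomyosin in striated muscle, formed the contrast. Of 8 genes, 1 reached 1 FPKM in every library, the median was 0.0117 FPKM, and Tnni2 and Tnnc1 were at 0 in all 3. The exception was Tnnt2, cardiac troponin T, at 27.4, 31.6 and 30.7 FPKM. Its libraries agreed within a coefficient of variation of 7.37%, and its level was far above those of the other 7, the highest of which was 0.493 FPKM.

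Actin folding and amino-terminal processing genes reached 1 FPKM for 15 of 16 found, the highest share of the 9 lists, with a median of 59.8 FPKM. The top 3 were subunits of the CCT chaperonin that folds actin, Cct7 at 154 ± 10.3 FPKM, Cct2 at 140.4 ± 2.35 and Cct5 at 105 ± 1.71. Of 17 actin-related and actin-like genes found, 9 (52.9%) reached 1 FPKM, near the 44.1% of all genes. The highest were Actr1a at 113 ± 19.7, Actr3 at 87.3 ± 1.27 and Actr1b at 58.3 ± 10.8. These encode parts of dynactin and of the Arp2/3 complex, not filament actin.

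**Figure D5:**
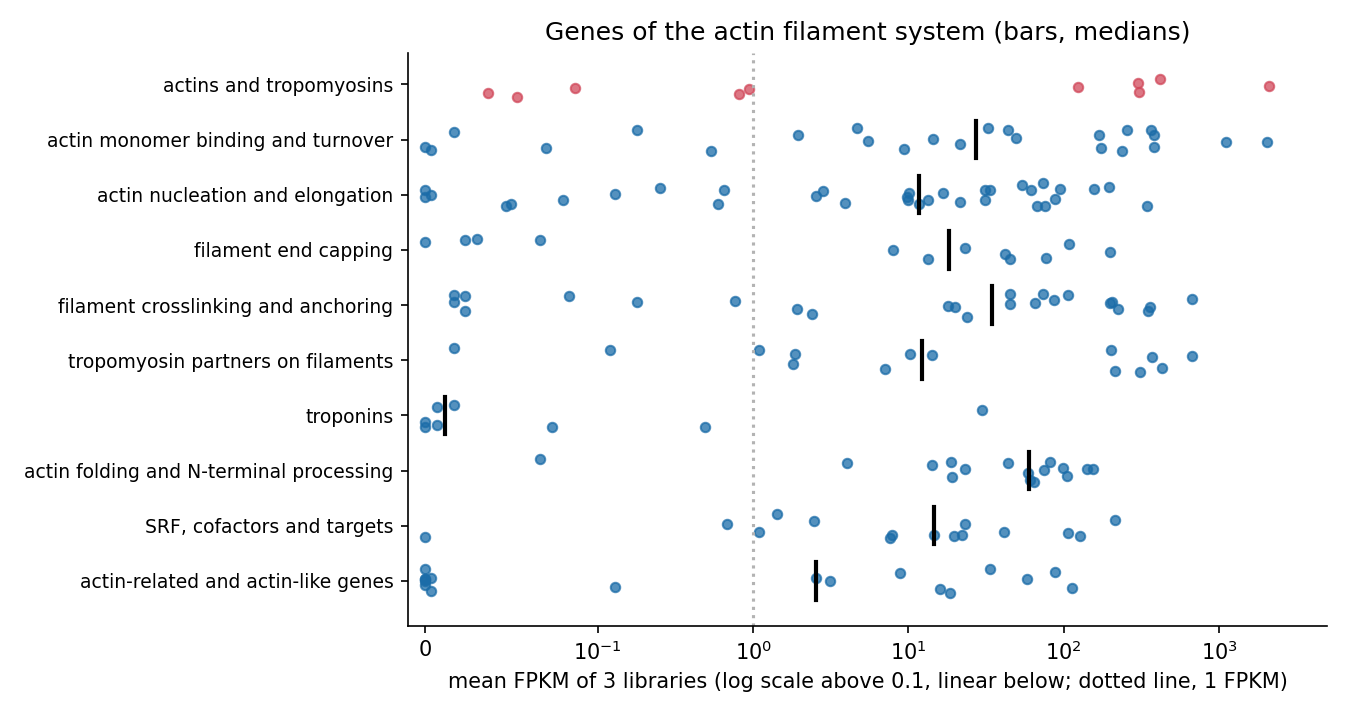
Each point is the mean FPKM of 1 gene over 3 libraries, for the 10 actins and tropomyosins (red) and the 9 lists (blue, with black bars for medians), on an axis that is logarithmic above 0.1. The actins and tropomyosins split into 5 genes below 1 FPKM and 5 above 100, and the troponins lie near 0 but for Tnnt2 at 29.9 FPKM.

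Because actin genes are known targets of serum response factor (SRF) and its actin-sensing cofactors, the promoters in RefSeq were searched for the CArG box, the sequence that SRF binds. The box was taken as CC, 6 bases that are each A or T, and GG, which reads the same way on both strands, and a looser form allowed 1 of the 6 to be C or G and so contains the strict one. The promoter table held 8 of the 10 genes, all but Actb and Actg2. Within 250 bases before the start, the strict box was found in 3 of the 8, Actg1, Acta1 and Actc1, and in 1.47% of all 32851 promoters. The looser form was found in 5 of the 8, adding Acta2 and Tpm3, and in 8.59% of all promoters.

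The last 140 bases before the start are printed for the 3 genes with a strict box, since they span the abundant Actg1 and the near-silent Acta1 and Actc1. Positions are of GRCm38.p6, another build than the mm9 positions above, and capitals mark boxes of either form.
Actg1, chr11:120348496-120348635, minus strand: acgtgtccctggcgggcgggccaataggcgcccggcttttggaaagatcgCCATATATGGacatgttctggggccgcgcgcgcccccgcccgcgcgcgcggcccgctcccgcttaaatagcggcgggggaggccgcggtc
Acta1, chr8:123894776-123894915, minus strand: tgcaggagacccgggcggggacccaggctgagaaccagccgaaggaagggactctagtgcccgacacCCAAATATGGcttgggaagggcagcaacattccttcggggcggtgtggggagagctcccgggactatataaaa
Actc1, chr2:114052876-114053015, minus strand: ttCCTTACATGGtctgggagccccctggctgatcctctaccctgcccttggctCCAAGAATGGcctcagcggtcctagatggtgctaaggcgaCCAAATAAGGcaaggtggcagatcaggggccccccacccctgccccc
The strict boxes begin at base -90 in Actg1 (CCATATATGG), -73 in Acta1 (CCAAATATGG) and -47 in Actc1 (CCAAATAAGG), counted from the start. Genes with this box therefore lay both at 419.7 FPKM and near the limit of measurement. A match says nothing about binding, which was not analysed here for SRF.

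Srf itself was measured at 23.8, 27.3 and 15.6 FPKM, named here after its values were seen. Of 15 genes found for SRF, its cofactors and known targets, 12 reached 1 FPKM, with a median of 14.7 FPKM. The highest were Myh9 (non-muscle myosin heavy chain) at 214 ± 9.39, Cyr61 at 128 ± 16.6 and Vcl (vinculin) at 107 ± 3.79. Myocd, the cofactor of cardiac and smooth muscle, was the 1 gene of the list at 0 in every library.

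Markers of cells in which the low genes are abundant were set beside them. Of 6 smooth muscle markers, Smtn (35.6 ± 5.14 FPKM) and Lmod1 (9.86 ± 1.44) reached 1 FPKM in every library, and the summed list ranged from 38.8 to 51.7 FPKM. Myh11, the smooth muscle myosin that defines the type and is named here for that, was at 0.0200 ± 0.0100 FPKM. The smooth muscle list was thus uneven, and its part in the levels of Acta2 and Actg2 was not tested.

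Of 9 skeletal muscle markers none reached 1 FPKM, their sum ranged from 0.15 to 0.38 FPKM, and Myh1, Myh2, Myh4 and Tnni2 were at 0 in all libraries. Of 6 cardiac markers Tnnt2 was the sole one to reach 1 FPKM, the sum ranged from 27.5 to 31.7 FPKM, and Nppa and Ryr2 were at 0. Of 7 fibroblast markers Col1a1 alone did so, at 1.54 ± 0.221 FPKM, with a summed range of 1.71 to 2.06 and Lum at 0. The summed markers of keratinocytes (0.36 to 0.70 FPKM), endothelium (0.01 to 0.03) and blood (0.78 to 1.61) were low as well, with none of these genes at 1 FPKM in every library.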

How the data were processed

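RNA-seq of 3 libraries of untreated melan-a cells was analysed from processed values. Per the study's methods and the submitters' processing notes, stranded mRNA libraries were sequenced with base calls by CASAVA 1.8.2. Reads lost 10 bases at the start, were aligned to mm9 (STAR 2.3.0e), cleared of rRNA (RSeQC 2.3.7) and counted on genes of Ensembl release 67 (HTSeq 0.5.3p3). The authors deposited FPKM after scaling between libraries by the trimmed mean of M values, with 2 decimals. The step from counts to FPKM and the treatment of reads with several matches are not given in the sources used here.

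Positions, lengths and GC content were read from GENCODE gene models for mm9 that correspond to Ensembl release 65, and 22324 of the 22698 genes matched. Depth was estimated from low values of genes of 60 to 400 bases, which fall on whole reads (58, 56 and 68 genes, mean distance 0.0422, 0.0356 and 0.0533). The GC adjustment subtracted each library's median log2 deviation from the gene mean in 50 bins of at least 200 genes. No test was made, since there was 1 condition.

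Members and lists were chosen with earlier results of these data known. Genes named are the 10 members, the 3 highest of each list, lists' members where a count is 5 or fewer, the nearest gene to each abundant member, melanocyte markers, other markers at 1 FPKM or more, and Cdkn2a. Exceptions are marked in the text or are genes that share sequence with a member. Alternatives were each library left out, other lengths, pseudocounts, thresholds, rescaling, the GC adjustment, fewer neighbours and other gene sets. The code was tested on simulated data. Versions were 3.11.15 of Python, 2.4.6 of numpy, 2.3.3 of pandas, 1.88 of biopython and 3.10.9 of matplotlib.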

Additional observations from a re-analysis of the deposited data

How the results depend on the processing

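Of 244 alternative values, 204 stayed close to the reported value and 40 did not. Close means within its SD over libraries, within 1.5 times for coefficients of variation and counts, and within 10 points for percentiles. This covers the count of 7 members at 0.1 FPKM against 5 at 1 FPKM, for which no share of all genes at 0.1 FPKM was computed. Reads were computed back from FPKM and joined-exon length, which assumes that the authors used that length. As such reads with no division by length, Tpm1 took 58.3% of the tropomyosin total, Tpm2 0.00747%, Tpm3 22.2% and Tpm4 19.5%. Acta2 took 0.0247% and Actg2 0.0188% of the actin total. Divided by the longest coding transcript, the values were 51.3%, 0.00875%, 25.3% and 23.4% for Tpm1 to Tpm4, 0.0267% for Acta2 and 0.0272% for Actg2. Tpm4 was above Tpm3 on the deposited scale and below it on both of these, and Acta2 was above Actg2 except with the longest coding transcript. These shifts follow from the lengths themselves. With the FPKM of Tpm3-rs7 added to that of Tpm3, Tpm1 took 38.6%, Tpm3 23.3% and Tpm4 38.1%. With 1 FPKM added to each value, the ratio of Tpm3 to Acta2 was 64.2 and that of Actg2 to Tpm2 was 1.67, and with 0.1 added the latter was 4.91, since the added amount is large beside the low gene. Leaving out 1 library at a time moved 10 of 123 values, all of them coefficients of variation or the rank of Actb. The mean level or share of a gene cannot leave its SD when 1 of 3 libraries is left out. Nor can the median of 3 libraries, so these values were fixed to stay close and say nothing of robustness. Such values are part of the 204 called close. The coefficients of variation of Actb (0.407%), Actg1 (3.64%) and Tpm3 (1.55%) moved without replicate 3, that of Tpm1 (1.22%) without replicate 1 and that of Tpm4 (4.31%) without replicate 4, and Actb ranked 14 without replicate 4. No paired analysis was possible because there is 1 condition, so no groups share replicate numbers. Depth limits Acta1 and Actc1, and copies elsewhere in the genome limit Actg1, Tpm3 and Tpm4.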
